A study of Homo sapiens with 18 samples.

Results

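Integrins are the adhesion receptors through which leukocytes hold on to other cells and to the extracellular matrix. The transcripts of 10 integrin subunit genes were followed in 3 human acute myeloid leukaemia cell lines, out of 40184 gene IDs in the deposited table. The 10 genes were chosen by symbol (ITGB2, ITGAL, ITGAM, ITGAX, ITGB1, ITGA4, ITGA5, ITGB7, ITGAV and ITGB5), and all 10 were found by their Ensembl IDs. They were selected from earlier results on these libraries, with the level in the vehicle cultures and the change with the drug in view. Those values are therefore given as a description, with no test. Counts of the members past a threshold are given beside the share over all genes, with nothing read from them.

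Per the labels, FLT3 has an internal tandem duplication in Molm-14 and MV4-11, and KIT is mutated (N822K) in SKNO-1. Each line was cultured for 24 h with the solvent DMSO or with 500 nM RMC-4550, an allosteric inhibitor of SHP2, the phosphatase encoded by PTPN11 that relays signals from receptor kinases to RAS. Each of the 6 groups had 3 replicates, which gave 18 libraries of polyadenylated RNA. GM-CSF at 10 ng/mL was in the medium of SKNO-1 alone, so the effects of line and of growth factor cannot be told apart. Each genotype is represented by established lines only, and nothing in the labels says how the replicate cultures were separated. The p-values then measure the spread between these samples, which may be technical.

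An integrin is a pair of 1 alpha and 1 beta subunit, and neither reaches the cell surface alone. ITGB2 (CD18) is the beta subunit of leukocytes, and it pairs with ITGAL (CD11a, in LFA-1), ITGAM (CD11b, in Mac-1) and ITGAX (CD11c). ITGB1 pairs with ITGA4 (in VLA-4, which binds VCAM1 and fibronectin) and with ITGA5 (the fibronectin receptor). ITGB7 shares ITGA4 and forms the receptor for the gut homing molecule MADCAM1. ITGAV pairs with several beta subunits, and with ITGB5 it forms a vitronectin receptor best known from adherent cells. Talin and the kindlins bind the beta tails from inside the cell and switch the pair to its active shape.

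Promoter sequence is shown for the subunit whose transcript moved the most (ITGB5) and for its alpha partner (ITGAV). It is also shown for ITGB7 and ITGAM, which belong to different integrins and moved the opposite way in SKNO-1. The sequences are from RefSeq on GRCh38.p14, where 7 of the 10 genes matched by symbol. Each window runs 5′ to 3′ on the gene's strand from up to 250 bases before the start, and bases in any GENCODE 29 exon were left off. ITGB5 had 3 promoter entries and ITGAV had 2. The entry closest to the start of the principal GENCODE 29 transcript was taken. The ITGB5 window lies within the span of the gene, and the other promoters of ITGB5 and ITGAV are not described. Capitals mark matches, on either strand, to GGGCGG (the Sp box) or GAGGAA (a purine-rich box of the PU.1 type). The ITGB5 window is chr3:124887366-124887599, minus strand; the ITGAV window is chr2:186589806-186590055, plus strand. The ITGB7 window is chr12:53207308-53207501, minus strand; the ITGAM window is chr16:31259725-31259966, plus strand.
ITGB5: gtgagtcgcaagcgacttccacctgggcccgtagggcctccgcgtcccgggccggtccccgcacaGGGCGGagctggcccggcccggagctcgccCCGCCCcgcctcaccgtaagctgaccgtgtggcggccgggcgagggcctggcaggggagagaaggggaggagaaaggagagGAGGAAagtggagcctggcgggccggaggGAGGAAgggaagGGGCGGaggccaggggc
ITGAV: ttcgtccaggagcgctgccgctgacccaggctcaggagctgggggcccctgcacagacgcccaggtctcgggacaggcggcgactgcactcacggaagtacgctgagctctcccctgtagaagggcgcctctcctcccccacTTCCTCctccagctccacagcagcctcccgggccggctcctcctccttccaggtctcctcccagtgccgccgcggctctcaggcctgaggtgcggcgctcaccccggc
ITGB7: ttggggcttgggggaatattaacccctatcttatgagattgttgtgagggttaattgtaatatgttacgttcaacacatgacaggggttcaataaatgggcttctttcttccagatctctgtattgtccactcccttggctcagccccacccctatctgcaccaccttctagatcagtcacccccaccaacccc
ITGAM: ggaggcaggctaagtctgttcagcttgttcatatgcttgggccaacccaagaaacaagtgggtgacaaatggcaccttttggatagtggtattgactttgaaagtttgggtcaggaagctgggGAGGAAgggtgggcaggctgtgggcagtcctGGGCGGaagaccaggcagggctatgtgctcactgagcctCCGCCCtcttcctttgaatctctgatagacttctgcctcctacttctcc

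The ITGB5 window had 3 GGGCGG matches and 2 GAGGAA matches. The ITGAM window had 2 of GGGCGG and 1 of GAGGAA, the ITGAV window had 1 GAGGAA match, and the ITGB7 window had 0 of either. None of the 4 windows held TGANTCA (the AP-1 site), TGTGGT (the RUNX core) or CCGGAA (an ETS core). GAGGAA and CCGGAA share the letters GGAA, and no matches overlapped. Among all 35116 promoters, cut to the positions of the ITGB5 window, 41.9% held GGGCGG, 22.3% GAGGAA, 6.21% TGANTCA, 10.3% TGTGGT and 14.1% CCGGAA. The ITGB5 window was 74.8% G or C, above 88.6% of promoters, and the ITGAV window was 70.8%. The ITGB7 and ITGAM windows were at 47.4% and 53.7%. These are descriptions of the letters in the windows only.

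The libraries held 17434810 to 19959917 reads. In 14 libraries mitochondrial genes took 5.07% to 7.02% of reads. In the other 4 (Molm-14 with RMC-4550 replicate 2, MV4-11 with DMSO replicates 1 and 3, and MV4-11 with RMC-4550 replicate 1) they took 10.5% to 15.0%, so values within each of these classes of libraries are given beside the results they touch. In MV4-11 the lower class holds 1 DMSO library (replicate 2) and 2 treated ones, and the higher class 2 DMSO libraries and 1 treated one. In Molm-14 the lower class holds 3 DMSO and 2 treated libraries. Within-class changes in MV4-11 thus rest on a single library in 1 arm and have no replicate check there. The myeloid genes PTPRC, CD33, SPI1, CEBPA, CSF3R and LYZ were present in all groups, and MPO was at 315 to 437 CPM (read counts divided by the scaled library size) in SKNO-1 and at no more than 4.4 CPM elsewhere. CD14 and CD34 were below 1 CPM in every library. CD3D, CD3E and CD3G of T cells, PF4 of platelets and CDH5 of endothelium were also below 1 CPM. The summed CPM of 5 monocyte genes, among them CD14, CSF1R, FCGR1A and VCAN, moved with the drug. In Molm-14 it lay between 30.1 and 35.3 with DMSO and between 69 and 89.2 with RMC-4550. The ranges were 78.4 to 94.7 and 129 to 166 in MV4-11, and 153 to 160 and 279 to 312 in SKNO-1. CSF1R carried the higher sums: it went from between 10.2 and 14.7 to between 55.2 and 78.1 CPM in Molm-14, and was also higher in each treated library of the other lines. FCGR1A went the other way, from between 19.4 and 20.6 to between 8.36 and 13 CPM in Molm-14 and from between 21.7 and 23.9 to between 15.8 and 17.8 CPM in SKNO-1. CD14 was at or near 0. The part of these genes in the integrin values was not tested.

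Genes known to differ between these lines did so only in part. RUNX1T1, whose fusion with RUNX1 is known in SKNO-1, was found in SKNO-1 vehicle cultures at 13.8 ± 0.607 CPM (SD, n = 3) and was at 0 in Molm-14 and MV4-11 with DMSO. HOXA9 and MEIS1 are known for high levels in leukaemias with a KMT2A fusion, such as Molm-14 and MV4-11. HOXA9 was lowest in the SKNO-1 libraries, at 53.7 ± 1.2 CPM, against 137 ± 3.71 CPM for Molm-14 and 92.5 ± 1.75 CPM for MV4-11. MEIS1 was at 119 ± 1.15 CPM for SKNO-1, 90.7 ± 2.36 CPM for Molm-14 and 125 ± 8.77 CPM for MV4-11. For 52.7% of 11641 genes the vehicle level of MV4-11 was the middle one of the lines, and this held for 4 of the 10 integrins (ITGB5, ITGAL, ITGB2 and ITGB7). Whether any culture held more than 1 line was not tested, and "SKNO-1" and "MV4-11" mean the libraries with those labels.

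With DMSO, ITGAL and ITGB2 were among the first 3 of the 10 genes in every line, and ITGB5 was the scarcest. The leukocyte chain ITGAM ranked lower, at place 7 in Molm-14 and MV4-11 and at place 8 in SKNO-1. Genes are compared here per length, as CPM per kb of the longest GENCODE 29 transcript. ITGAL led in MV4-11 at 277 ± 17.3 and in SKNO-1 at 278 ± 2.69 CPM per kb (SD, n = 3). In Molm-14 ITGB2 led at 97.2 ± 3.34, above ITGAL at 72.5 ± 0.962. The fibronectin receptor chain ITGA5 came next in Molm-14, at 47.6 ± 1.16, and its partner ITGB1 followed at 44.6 ± 0.83. In Molm-14 no neighbours in the order overlapped: below these came ITGA4, ITGAX, ITGAM, ITGAV, ITGB7 and ITGB5. In MV4-11 the order was ITGAL, ITGB2, ITGAX, ITGA5, ITGB1, ITGA4, ITGAM, ITGB7, ITGAV and ITGB5. There ITGAX overlapped ITGA5, ITGB1 overlapped ITGA4, and ITGAM overlapped ITGB7.

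In SKNO-1 the order was ITGAL, ITGA5, ITGB2, ITGAX, ITGA4, ITGB1, ITGB7, ITGAM, ITGAV and ITGB5. ITGA5 at 68.3 ± 2.32 overlapped ITGB2 at 63.7 ± 2.58 CPM per kb, and ITGAV at 2.88 ± 0.251 overlapped ITGB5 at 2.65 ± 0.101. ITGB5 was at 0.0341 ± 0.0263 CPM per kb in Molm-14 and at 0.966 ± 0.305 in MV4-11, so its place at the bottom held in all 3 lines. It was also last in each RMC-4550 group. With the median transcript length in place of the longest, the first place and the last were as above in each DMSO group, while places in between moved by at most 2.

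**Figure D1:**
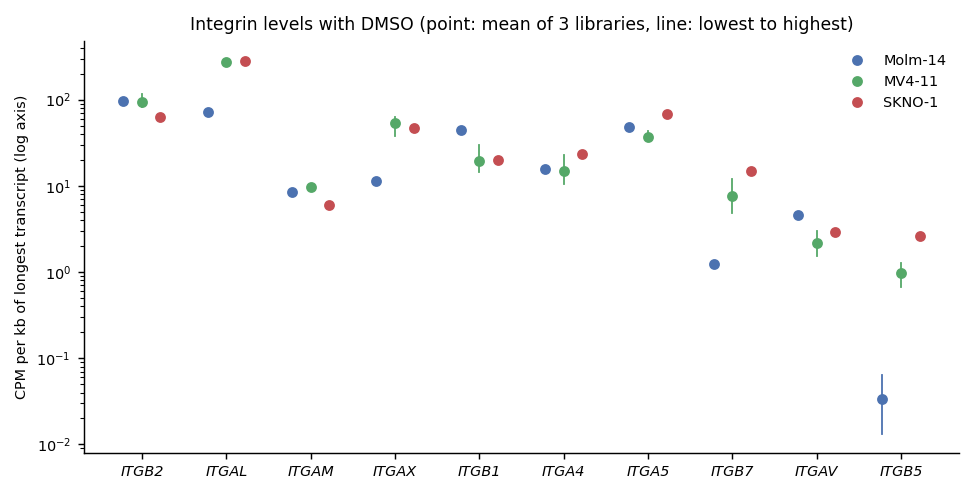
Levels of the 10 integrin genes with DMSO, in CPM per kb of the longest transcript on a log axis; points are means of 3 libraries and lines run from the lowest to the highest library. ITGAL reaches 277 in MV4-11 and 278 in SKNO-1, and ITGB5 is the lowest gene in each line, down to 0.0341 in Molm-14.

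ITGB2, the common beta subunit of the leukocyte integrins, was lower with the inhibitor in SKNO-1 and, by less, in Molm-14. ITGB2 (ENSG00000160255, chr21:44885953-44931989) was at 294, 301 and 318 CPM with DMSO in SKNO-1 and at 189, 195 and 196 CPM with RMC-4550. The groups did not overlap, and the log2 change was -0.65 ± 0.15 (SE of the fit, here and below). The fit shares its estimate of a gene's spread over all 18 libraries, so an SE is not the spread of 1 line alone. In bulk RNA, fewer cells that carry a transcript and less of it per cell cannot be told apart. In Molm-14 its levels were 447, 468 and 478 CPM with DMSO and 435, 289 and 409 CPM with the drug, a log2 change of -0.32. The lowest treated value came from the library with many mitochondrial reads, and without it the change was -0.14. In MV4-11 the values were 396, 553 and 406 CPM against 315, 408 and 415 CPM, which overlapped; the log2 change was -0.25 over all, -0.43 among libraries at or under 10% mitochondrial reads and -0.35 among those above.

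ITGAL, the alpha chain of LFA-1, was higher with the drug in Molm-14 and SKNO-1, and in SKNO-1 it moved the other way from its partner ITGB2. ITGAL (ENSG00000005844, chr16:30472658-30523185) went in Molm-14 from 377, 373 and 383 CPM to 599, 698 and 607 CPM, 1.68-fold higher between the means, with a log2 change of 0.74 ± 0.08. Without the Molm-14 library with many mitochondrial reads the change was 0.67. In SKNO-1 it went from 1435, 1459 and 1460 CPM to 1802, 1987 and 1935 CPM, a log2 change of 0.39. In MV4-11 it was at 1463, 1347 and 1525 CPM with DMSO and at 1600, 1577 and 1676 CPM with the drug. Those groups did not overlap, and the log2 change was 0.16. It was 0.27 among the MV4-11 libraries at or under 10% mitochondrial reads and 0.10 among those above.

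ITGAM, the alpha chain of the complement receptor Mac-1, was higher with the drug in MV4-11 and SKNO-1. ITGAM (ENSG00000169896, chr16:31259967-31332892) went in SKNO-1 from 27.4, 27.8 and 30.7 CPM to 49.4, 49.9 and 48.4 CPM, 1.72-fold higher between the means, with a log2 change of 0.78 ± 0.07. In MV4-11 it went from 47.6, 46.6 and 44.5 CPM to 65.2, 60.8 and 65.1 CPM. That was a log2 change of 0.46, and 0.43 and 0.50 within the libraries at or under and above 10% mitochondrial reads. In Molm-14 it was at 38.9, 39.9 and 42.9 CPM with DMSO and at 40.5, 36.9 and 39.4 CPM with the drug, and the groups overlapped. SKNO-1 was thus the lowest of the lines with DMSO and lay above Molm-14 with the drug.

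ITGAX, the alpha chain found on monocytes and dendritic cells, was higher with the drug in Molm-14 and, by less, in SKNO-1. ITGAX (ENSG00000140678, chr16:31355134-31382997) went in Molm-14 from 55, 49.2 and 57.1 CPM to 88.5, 157 and 94 CPM, a log2 change of 1.03 ± 0.21. The highest treated value was the library with many mitochondrial reads, and the change without it was 0.77. In SKNO-1 the values were 215, 227 and 218 CPM against 283, 328 and 315 CPM. These did not overlap, and the log2 change was 0.49. In MV4-11 the values were 287, 176 and 297 CPM against 362, 248 and 282 CPM and overlapped. The log2 change there was 0.25 over all, 0.58 among the libraries at or under 10% mitochondrial reads and 0.31 among those above.

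ITGAL kept the largest share of the alpha chains that pair with ITGB2 in each group, between 78.4% and 84% of their summed level per length. ITGAM took 9.24% ± 0.33 (SD, n = 3) in Molm-14 with DMSO and 5.39% ± 0.84 with the drug, where its own level overlapped between the groups and ITGAL and ITGAX were higher. In MV4-11 it took 2.88% ± 0.32 and 3.47% ± 0.014, and in SKNO-1 1.82% ± 0.1 and 2.35% ± 0.13. With the median transcript length ITGAL took 86.2% to 93% and ITGAX, at 12.4% to 16.3% with the longest, took 4.52% to 6.11%. ITGAD, the fourth alpha partner, took at most 0.0205% in any group mean. The genes ITGAL, ITGAM and ITGAX lie on chromosome 16, ITGAM and ITGAX next to each other in the same orientation.

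**Figure D2:**
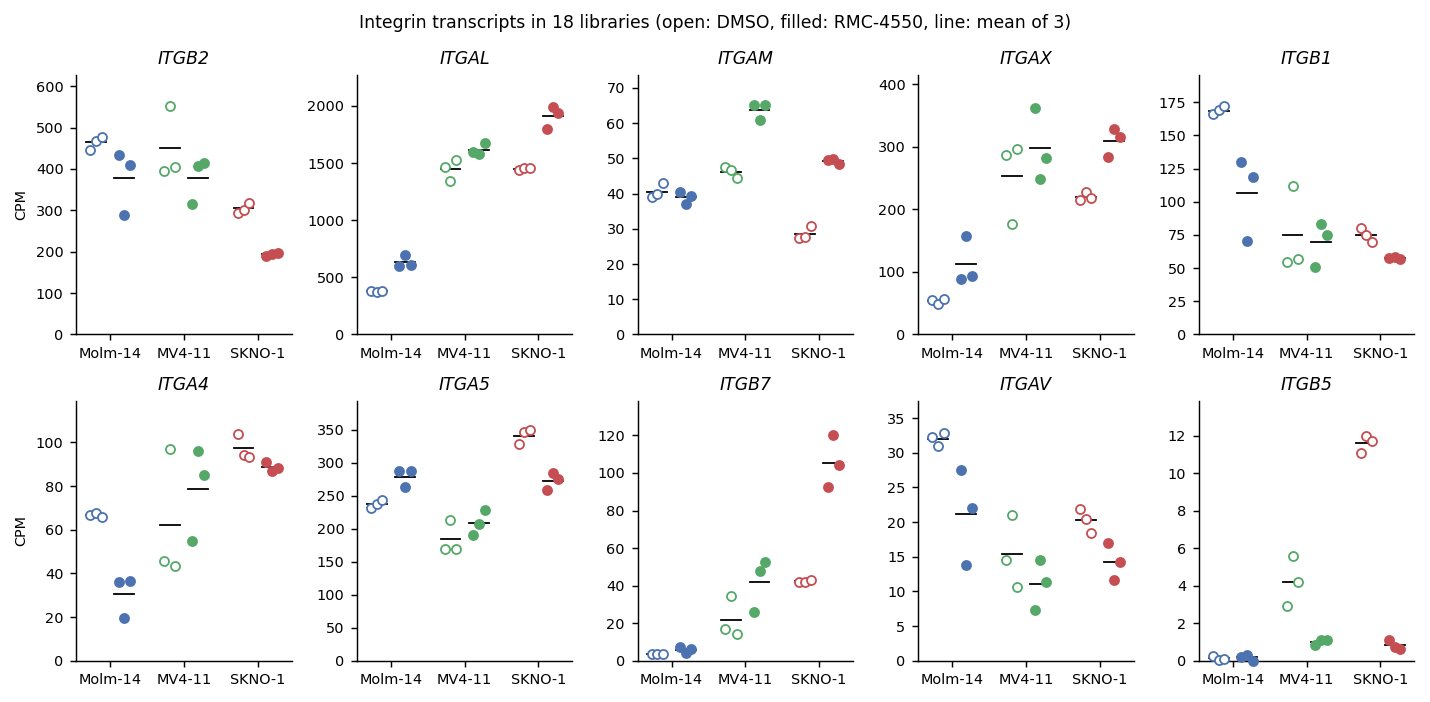
CPM of each integrin gene in the 18 libraries; open circles are DMSO, filled circles RMC-4550 and black lines the means of 3. ITGB5 in SKNO-1 drops from 11.1 to 12 CPM to 0.644 to 1.11 CPM, while ITGB7 in the same line goes from 42 to 42.9 CPM to 92.5 to 120 CPM.

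Among the fibronectin and VCAM1 receptors, ITGA4 was lower with the drug in Molm-14 and, by less, in SKNO-1. ITGA4 (ENSG00000115232, chr2:181457202-181536187) went in Molm-14 from 66.6, 67.7 and 66 CPM to 36.1, 19.4 and 36.6 CPM, 2.17-fold lower, with a log2 change of -1.18 ± 0.28. Without the library with many mitochondrial reads, which held the lowest value, the change was -0.88. In SKNO-1 ITGA4 was at 104, 94.4 and 93.4 CPM with DMSO and at 91.1, 86.7 and 88.5 CPM with the drug, which gave a log2 change of -0.13. In MV4-11 it was at 45.6, 97 and 43.5 CPM against 55, 95.9 and 85.1 CPM. The 3 low values there were the libraries with many mitochondrial reads; the log2 change was 0.30 among them and -0.10 among the rest.

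ITGB1 (ENSG00000150093, chr10:32900319-33005792), the partner of ITGA4 and ITGA5, went in Molm-14 from 166, 169 and 172 CPM to 130, 70.3 and 119 CPM. The log2 change of -0.71 ± 0.25 became -0.44 without the treated library at 70.3 CPM, which was the one with many mitochondrial reads. In SKNO-1 it was at 80.5, 75 and 69.4 CPM with DMSO and at 57.9, 58.1 and 56.5 CPM with the drug, which gave a log2 change of -0.38. In MV4-11 the values were 54.7, 112 and 57.1 CPM against 50.9, 83.4 and 75.1 CPM. The log2 change there was -0.04 over all, -0.50 among the libraries at or under 10% mitochondrial reads and -0.13 among those above.

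ITGA5 (ENSG00000161638, chr12:54395261-54419460), the alpha chain of the fibronectin receptor, went in SKNO-1 from 328, 346 and 349 CPM to 259, 284 and 276 CPM. The groups did not overlap, and the log2 change was -0.32 ± 0.09. In Molm-14 it was at 232, 238 and 243 CPM with DMSO and at 287, 264 and 287 CPM with the drug. Those groups did not overlap, and the log2 change was 0.23. In MV4-11 the values were 170, 214 and 169 CPM against 190, 207 and 228 CPM, with a log2 change of 0.18, and 0.02 and 0.17 within the libraries at or under and above 10% mitochondrial reads.

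ITGB7, the other partner of ITGA4, was 2.49-fold higher with the drug in SKNO-1. ITGB7 (ENSG00000139626, chr12:53191318-53207307) went from 42.1, 42 and 42.9 CPM to 92.5, 120 and 104 CPM, a log2 change of 1.31 ± 0.30. In MV4-11 it went from 17.1, 34.7 and 14 CPM to 26, 47.7 and 52.6 CPM, a log2 change of 0.99, and the groups overlapped. The change was 0.53 among the MV4-11 libraries at or under 10% mitochondrial reads and 0.75 among the rest. In Molm-14 ITGB7 was near the bottom, at 3.72, 3.52 and 3.4 CPM with DMSO and 7.32, 3.91 and 6.39 CPM with the drug. The log2 change there was 0.68, and it was 0.94 without the library at 3.91 CPM. Exons of ZNF740 on the opposite strand overlap those of ITGB7, and whether reads were counted by strand is not given in the sources used here. Antisense exons likewise overlap ITGAL, ITGB2, ITGA5, ITGB1 and ITGAV.

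ITGB5 in SKNO-1 showed the largest change of the 10 genes in any line. ITGB5 (ENSG00000082781, chr3:124761948-124901418) went from 11.1, 12 and 11.7 CPM to 1.11, 0.742 and 0.644 CPM, 13.9-fold lower between the means, with a log2 change of -3.80 ± 0.68. The treated libraries held 14 to 24 reads and the DMSO libraries 241 to 261. In MV4-11 it was at 2.91, 5.57 and 4.19 CPM with DMSO and at 0.845, 1.11 and 1.12 CPM with the drug. The groups did not overlap, and the means differed 4.12-fold. The log2 change was -1.98 ± 0.68. This SE is pooled over all 3 lines, with Molm-14 at 0 to 5 reads per library, so it is not the spread of MV4-11. With 1 DMSO library against 2 treated ones at or under 10% mitochondrial reads it was -2.30, and with 2 against 1 above that limit it was -2.01.

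In Molm-14 ITGB5 had 1 to 5 reads per library with DMSO and 0 to 5 with the drug, so no fold is given there. Its alpha partner ITGAV (ENSG00000138448, chr2:186590065-186680901) was present in all lines. In SKNO-1 ITGAV was at 21.9, 20.5 and 18.4 CPM with DMSO and at 17, 11.7 and 14.2 CPM with the drug. In Molm-14 it was at 32.3, 30.9 and 32.8 CPM against 27.5, 13.8 and 22.1 CPM. The groups did not overlap in either line, and the log2 changes were -0.51 and -0.66. The Molm-14 change was -0.38 without the library at 13.8 CPM. In MV4-11 ITGAV was at 14.5, 21 and 10.7 CPM against 7.29, 14.5 and 11.3 CPM, a log2 change of -0.48, with -0.71 and -0.77 within the libraries at or under and above 10% mitochondrial reads. Per length, SKNO-1 held 92.8 ± 10 ITGB5 transcripts for each 100 of ITGAV with DMSO and 9.32 ± 1.8 with the drug (SD, n = 3). The same ratio was 46.1 ± 16 and 15.6 ± 3.2 in MV4-11. This ratio depends on the length used: with the median transcript length it was 49.2 and 4.95 in SKNO-1 and 24.4 and 8.29 in MV4-11, so a near equal level of both chains with DMSO is not shown.

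**Figure D3:**
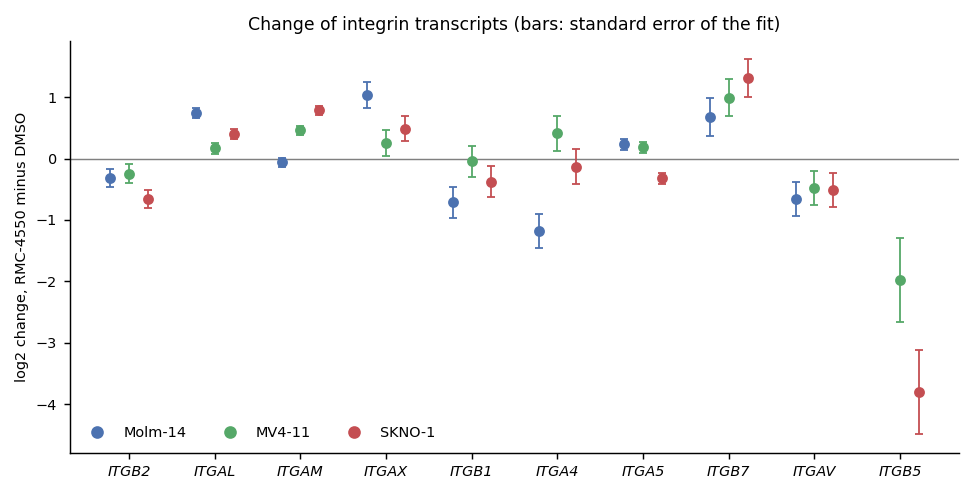
Log2 change with RMC-4550 of each integrin gene in each line; bars are the standard error of the fit, and ITGB5 in Molm-14, at 0 to 5 reads per library, is not drawn. ITGB5 stands at -3.80 in SKNO-1 and -1.98 in MV4-11, below the 9 other genes, and ITGB7 at 1.31 in SKNO-1 is the highest point.

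Set side by side, with a threshold of 0.05 on the adjusted p of a limma fit across all genes, ITGAX and ITGAL passed as higher and ITGA4 and ITGB1 as lower in Molm-14, which is 4 of 9 genes tested. Over all 13971 genes tested in that line, 21.5% passed as higher and 25.2% as lower. In MV4-11, 2 of 10 passed as higher (ITGAM and ITGB7) and 0 as lower by limma, with 5.85% and 8.03% over all 14739 genes tested; at an unadjusted p under 0.05, and with voom weights, 1 was lower (ITGB5). In SKNO-1, 3 passed as higher (ITGAM, ITGAL and ITGB7) and 3 as lower (ITGB5, ITGB2 and ITGA5), with 10.8% and 16.2% over all 14670 genes tested. ITGB5 in MV4-11 passed as lower in 8 of 30 alternative settings, among them the fit of each line alone. The ITGB7 call in MV4-11 was lost in 16 of 31 alternative settings, and that of ITGAM in 1. The calls of ITGB1 in Molm-14 and ITGA5 in SKNO-1 were each lost in 4. Of 17 pairs of gene and line that did not pass, 15 passed in at least 1 alternative. The rule that chose the genes used these contrasts, so nothing is read from the counts. Higher genes were 46% of all those called for Molm-14, 42.2% for MV4-11 and 40% for SKNO-1. With median-ratio scaling between libraries these shares were 50.8%, 51.9% and 50.4%, and with the mitochondrial share in the model the MV4-11 one was 35.4%. The members' median log2 change was -0.06 (Molm-14), 0.17 (MV4-11) and -0.23 (SKNO-1), beside -0.06, -0.01 and -0.05 over all genes tested.

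Treated and DMSO libraries did not overlap for 8 of 9 integrins in Molm-14, 3 of 10 in MV4-11 and all 10 in SKNO-1. Over all genes tested the shares without overlap were 60.0%, 24.6% and 62.0%, so a lack of overlap was common in Molm-14 and SKNO-1. Without the 4 libraries above 10% mitochondrial reads, 8 of 9 members passed in Molm-14, 7 of 10 in MV4-11 and 9 of 10 in SKNO-1. In the same fit 58.7%, 28.4% and 53.3% of all genes tested passed. MV4-11 then had 1 DMSO library against 2 treated ones, and that lone library was assumed to vary like the other groups. The rule that chose the members used these libraries, so nothing is read from these counts either.

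The makeup of the beta subunits differed between the SKNO-1 groups. Taking the 8 beta genes per length, ITGB2 went from 62% ± 1.6 to 42.8% ± 1.9 of the total there (SD, n = 3), and ITGB7 from 14.4% ± 0.05 to 38.7% ± 2.8. ITGB5 went from 2.58% ± 0.096 to 0.203% ± 0.07, and ITGB1 from 19.3% ± 1.7 to 16.1% ± 0.93. In MV4-11 ITGB2 went from 76.9% ± 3.8 to 70% ± 2.9 and ITGB7 from 5.95% ± 1.5 to 12.6% ± 2.3. In Molm-14 ITGB2 and ITGB1 together made up nearly the whole, with ITGB2 at 67.7% ± 0.45 and 71.9% ± 1.8 and ITGB1 at 31.1% ± 0.32 and 25.2% ± 2.1. With the median transcript length the ITGB7 share was 8.26% and 25.3% in SKNO-1 and 3.24% and 7.13% in MV4-11, and that of ITGB2 in SKNO-1 was 68.8% and 54%. A share of transcripts is not a share of receptors, since pairs form at the protein level.

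**Figure D4:**
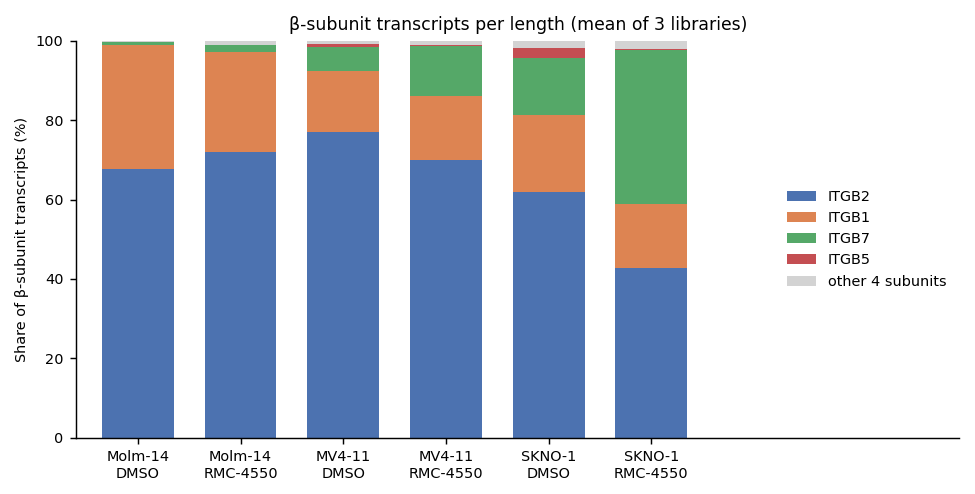
Share of the 8 beta-subunit genes in their summed level per length, as means of 3 libraries in each group. In SKNO-1 the ITGB7 share goes from 14.4% to 38.7% and the ITGB2 share from 62% to 42.8%; in Molm-14 ITGB2 and ITGB1 fill nearly the whole bar.

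The 16 other integrin subunits were mostly too low to test: 5 were tested in Molm-14 and 8 in each of the other lines. For these and the lists below, a gene is said to rise, fall or pass where its adjusted p in the limma fit was under 0.05. Genes were named for large changes in a line, and that choice favours a difference in response between lines. In Molm-14, 3 rose (ITGA6, ITGA7 and ITGB4) and 1 fell (ITGA1). In MV4-11 ITGA6 rose and ITGA1 fell, and in SKNO-1 0 of 8 passed by limma. There, 2 of the 8 were at an unadjusted limma p under 0.05 (ITGA2 and ITGAE, both lower). Voom weights called ITGA2B higher and ITGA2 lower in that line. The shares over all genes tested were 21.5% higher and 25.2% lower in Molm-14. They were 5.85% and 8.03% in MV4-11, and 10.8% and 16.2% in SKNO-1. ITGA7, a laminin receptor chain known from muscle, was at 149, 160 and 167 CPM with DMSO in Molm-14 and at 236, 272 and 222 CPM with the drug (log2 change 0.61, limma adjusted p 0.00022). It did not pass in MV4-11 (adjusted p 0.88 by limma) or SKNO-1 (adjusted p 0.26), and the response differed between Molm-14 and MV4-11 by 0.65 (adjusted p 0.0087). ITGA6, another laminin receptor chain, rose from 2.83, 2.88 and 2.79 CPM to 4.76, 4.04 and 5.09 CPM in Molm-14 (limma adjusted p 0.0031). That call was lost with quantile normalization. In MV4-11 ITGA6 rose from 3.39, 4.35 and 4.01 CPM to 4.38, 7.54 and 6.65 CPM (limma adjusted p 0.02). This call was lost without DMSO replicate 1 or RMC-4550 replicate 2 or 3, and when each line was fitted alone. SKNO-1 held more ITGA6, 26.9, 25 and 25.4 CPM against 25.6, 23.4 and 22 CPM, and those groups overlapped.

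Of 36 genes that activate integrins or link them to the cytoskeleton and to kinases, 7 rose and 8 fell of 33 tested in Molm-14. In MV4-11, 4 rose and 2 fell of 32, and in SKNO-1, 5 rose and 4 fell of 32. The shares over all genes were 21.5% and 25.2% in Molm-14, 5.85% and 8.03% in MV4-11, and 10.8% and 16.2% in SKNO-1, so the Molm-14 counts are near the background. The median log2 change of the list was -0.15, 0.09 and 0.00, beside -0.06, -0.01 and -0.05 over all genes. FERMT3, APBB1IP and FYB1 were among the genes that passed as higher in all 3 lines, and PTK2 passed as lower in all 3. The share of all genes that passed the same way in all 3 lines is not given here. Nothing is therefore read from this match between lines. Without the 4 libraries above 10% mitochondrial reads, the 3 lists together had 32 calls for Molm-14, 16 for MV4-11 and 22 for SKNO-1, against 24, 9 and 10 with all libraries. The shares of all genes called were then 58.7%, 28.4% and 53.3%, and the MV4-11 value rests on 1 DMSO library. Comparing the responses themselves, 10.9% of all genes passed between SKNO-1 and Molm-14, 19.5% between Molm-14 and MV4-11 and 1.66% between SKNO-1 and MV4-11. Of the list genes 0 of 7, 0 of 31 and 0 of 10 passed in the last of these by limma, with or without voom weights, and 1, 2 and 2 were at an unadjusted p under 0.05.

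FERMT3, the kindlin of blood cells that binds beta tails, rose from 197, 214 and 222 CPM to 255, 293 and 272 CPM in SKNO-1 (log2 change 0.37, limma adjusted p 0.0045). Its log2 change was 0.40 in Molm-14 (limma adjusted p 0.0014) and 0.38 in MV4-11 (limma adjusted p 0.0077). The MV4-11 call was lost when each line was fitted alone. APBB1IP, also called RIAM, brings talin to the membrane with RAP1. In SKNO-1 it was at 112 CPM in each DMSO library and at 171, 165 and 169 CPM with the drug, a log2 change of 0.59, with 0.61 in MV4-11 and 0.37 in Molm-14. FYB1, the adaptor ADAP that couples SKAP proteins to integrin activation, rose in Molm-14 from 55.2, 54.7 and 51.9 CPM to 120, 162 and 112 CPM (log2 change 1.27, limma adjusted p 4.8e-07). It rose by 1.08 in SKNO-1 and 0.72 in MV4-11, and the response in Molm-14 exceeded that in MV4-11 by 0.55 (limma adjusted p 0.031).

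PTK2, which encodes the focal adhesion kinase, fell from 73.1, 77.1 and 79.4 CPM to 42.5, 35.1 and 42 CPM in Molm-14 (log2 change -0.95, limma adjusted p 1.1e-05). SKNO-1 also showed a fall, from 35.9, 35.8 and 33.6 CPM to 23.2, 21 and 23 CPM (limma adjusted p 0.00065). In MV4-11 it went from 41.1, 61.3 and 52.6 CPM to 37.7, 40.4 and 40.2 CPM (log2 change -0.37, limma adjusted p 0.047), and that call was lost in 20 of 31 alternative settings. Without MV4-11 DMSO replicate 2 the change was -0.24, and without the 4 libraries above 10% mitochondrial reads it was -0.60. CRKL, an adaptor downstream of paxillin and CAS proteins, fell by 0.61 in Molm-14 and by 0.64 in SKNO-1. Its change of -0.25 in MV4-11 did not pass (limma adjusted p 0.061).

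TLN2, the less common talin of blood cells, fell in Molm-14 from 9.33, 9.98 and 9.08 CPM to 4.32, 3.91 and 4.35 CPM (log2 change -1.17, limma adjusted p 0.0011). It was at 9.5, 8.58 and 8.15 CPM against 9.25, 9.84 and 9.29 CPM in SKNO-1, and the responses of these lines differed by 1.29 (limma adjusted p 0.025). PARVG, the parvin of blood cells that joins integrin-linked kinase to actin, rose in Molm-14 from 311, 306 and 313 CPM to 496, 873 and 523 CPM (limma adjusted p 0.00086). The highest of these was the library with many mitochondrial reads, and without it the change was 0.72 in place of 0.98. PARVG did not pass in MV4-11 or SKNO-1 (limma adjusted p 0.53 and 0.67).

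**Figure D5:**
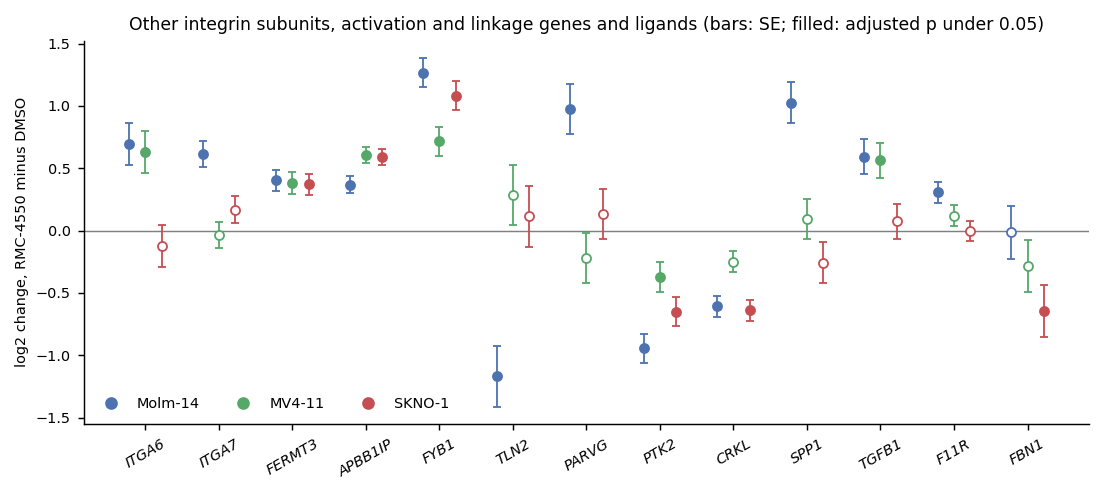
Log2 change with RMC-4550 of the named genes of the 3 lists in each line; bars are standard errors of the fit and filled points passed the threshold. FERMT3, APBB1IP and FYB1 lie above 0 and PTK2 below 0 in all 3 lines, while TLN2 at -1.17 and PARVG at 0.98 stand out in Molm-14.

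Ligands that these cells themselves transcribe were tested for 10 of 18 genes found in Molm-14 and MV4-11 and for 11 in SKNO-1. In Molm-14, 5 rose (MADCAM1, F11R, JAM2, SPP1 and TGFB1) and 0 fell by limma, also with voom weights or at an unadjusted p under 0.05. In MV4-11 TGFB1 rose, and in SKNO-1 FBN1 fell. Over all genes tested, 21.5% passed as higher and 25.2% as lower in Molm-14. These shares were 5.85% and 8.03% in MV4-11, and 10.8% and 16.2% in SKNO-1. The list's median log2 change was 0.27 (Molm-14), 0.28 (MV4-11) and -0.08 (SKNO-1), beside -0.06, -0.01 and -0.05 over all genes. TGFB1, whose latent form is held by a peptide that ITGAV integrins bind, rose from 237, 257 and 245 CPM to 421, 293 and 417 CPM in Molm-14 (limma adjusted p 0.0026). In MV4-11 it rose from 408, 519 and 397 CPM to 578, 647 and 725 CPM (limma adjusted p 0.013). This call was lost without DMSO replicate 1 or 3 or RMC-4550 replicate 3, and when each line was fitted alone. In SKNO-1 it was at 596, 629 and 635 CPM against 589, 725 and 649 CPM, which overlapped.

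SPP1 (osteopontin), a ligand of ITGAV and ITGA4 integrins, rose in Molm-14 from 4.22, 4.27 and 3.4 CPM to 10.2, 6.92 and 7.41 CPM (log2 change 1.02, limma adjusted p 0.00011). It did not pass in the other lines, and the response in SKNO-1 lay 1.28 below that in Molm-14 on the log2 scale (limma adjusted p 0.002). F11R, the junctional molecule JAM-A that LFA-1 binds, rose by 0.31 in Molm-14 (limma adjusted p 0.0068). FBN1, a matrix fibrillin, fell in SKNO-1 from 6.64, 5.6 and 6.17 CPM to 4.21, 3.39 and 4.18 CPM (limma adjusted p 0.033). That call was lost without any 1 of the 6 SKNO-1 libraries, with median-ratio scaling, and with no filter on low values.

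The genes whose log2 values followed ITGB5 most closely over the 18 libraries, among 11028 ranked, were CEP131 (Pearson r 0.944), TRPM2 (r 0.934), CCDC9 (r 0.925), HNRNPUL2 (r 0.916) and USP4 (r 0.910). The points share lines and treatments, so r is a description. TRPM2, a calcium-permeable channel, was at group means of 113 CPM in SKNO-1 with DMSO and 61.7 CPM with the drug, 82.8 and 65.5 CPM in MV4-11, and 43.8 and 30.9 CPM in Molm-14. In MV4-11 and SKNO-1 the order of the 4 group means was that of ITGB5, over a narrower range.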

How the data were processed

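RNA-seq of 18 cultures was deposited by the authors as log2 values per gene; per the submitters' processing notes, FastQC, STAR and limma were used with genome build GRCh38, and the counter and strand setting are not given in the sources used here. From the values, each deposited log2 value was log2 of CPM with 0.5 reads added. Undoing this gave whole reads (tolerance 0.02) for 100% of values under 20 reads in each library, so CPM were computed from those reads. Totals ran from 17434810 to 19959917 reads, and these limit precision for ITGB5. Library scaling factors ran from 0.890 to 1.11.

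The deposited log2 values were fitted with limma 3.58.1 in R 4.3.3, with 1 coefficient for each of 6 groups. It was used with eBayes with a trend and Benjamini-Hochberg adjustment over the genes tested. The procedure was run on simulated data with the same spread setting for every gene and line. That run cannot show how the fit handles lines of unequal spread. The fit took the 16262 genes that reached 1 CPM in 3 or more libraries, and a gene was tested in a line where 3 or more libraries of that line did. Symbols came from the gene IDs, and lengths, positions and exons from GENCODE 29. The members and the lists (16 other subunits, 36 activation and linkage genes and 19 ligands) were chosen with earlier results of these data known. From each list and line, up to 4 called genes with the largest absolute log2 change and a mean of at least 5 CPM were named, and the 5 genes most correlated with ITGB5; other names were given where a count of 5 or fewer was listed or as markers, after their values were seen. The second group of names includes RUNX1T1, HOXA9 and MEIS1. The mitochondrial limit of 10% was set after seeing the data. Plotting used Python 3.11.15 and matplotlib 3.10.9. Some genes of the lists are not reported here by name.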

Additional observations from a re-analysis of the deposited data

Results flagged for a closer look

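Among the genes of the 3 lists that were named, the response to RMC-4550 differed between lines by limma's contrast of the responses for the following, on the log2 scale, with no explanation tested. The ITGA6 response in SKNO-1 minus that in Molm-14 was -0.82 (adjusted p 0.037). For ITGA7, Molm-14 minus MV4-11 gave 0.65 (limma adjusted p 0.0087). The TLN2 response in SKNO-1 exceeded that in Molm-14 by 1.29 (limma adjusted p 0.025), and Molm-14 minus MV4-11 was -1.46 (adjusted p 0.01). FYB1 differed between Molm-14 and MV4-11 by 0.55 (limma adjusted p 0.031), and PARVG by 1.20 (adjusted p 0.0093). PTK2 differed in the same contrast by -0.57 (limma adjusted p 0.027), and CRKL by -0.36 (adjusted p 0.048). SPP1 differed between SKNO-1 and Molm-14 by -1.28 (limma adjusted p 0.002) and between Molm-14 and MV4-11 by 0.93 (adjusted p 0.013). The contrasts share the Molm-14 libraries, so they are not independent of each other. The genes were named for large changes in a line, from these same libraries, which favours a difference between lines in advance. Over all genes tested, 10.9% passed between SKNO-1 and Molm-14 and 19.5% between Molm-14 and MV4-11. The latter count ran from 1395 to 5873 genes when single libraries were left out. Nothing is read from how many genes are listed here.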

How the results depend on the processing

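The log2 change of ITGB5 over the alternatives run ran from -4.15 to -2.79 in SKNO-1, that of ITGB7 from 0.53 to 1.38 in MV4-11, that of ITGB1 from -0.88 to -0.37 in Molm-14 and that of ITGA5 from -0.36 to -0.26 in SKNO-1. The number of genes called in MV4-11, 2045 in all, was 671 when each line was fitted alone, 5054 with the share of mitochondrial reads in the model and 3897 without the 4 libraries above 10% mitochondrial reads, an alternative chosen after seeing the data that leaves 1 DMSO library in MV4-11. Under the same 3 settings SKNO-1 went from 3969 to 8209, 7270 and 7818, and the listed adhesion genes from 9 to 3, 21 and 16 in MV4-11 and from 10 to 23, 17 and 22 in SKNO-1. With that share in the model and without the 4 libraries, the response of SKNO-1 against Molm-14 went from 1400 genes to 3687 and 3823, and that of SKNO-1 against MV4-11 from 230 to 1288 and 823. The adhesion counts moved in the same direction as the counts of all genes in both lines. Here and below they are given without shares over all genes, so nothing is read from them. The cause was not tested.

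Leaving out single libraries gave 5357 to 7243 genes in Molm-14, 1177 to 3005 in MV4-11 and 2792 to 4886 in SKNO-1, and 23 to 26, 4 to 14 and 6 to 13 adhesion genes. MV4-11 had 14 without DMSO replicate 2, 5 without DMSO replicate 1 or 3 or RMC-4550 replicate 2, and 4 without RMC-4550 replicate 3; its gene count was 1355 without DMSO replicate 3, 1321 without RMC-4550 replicate 2 and 1177 without replicate 3. SKNO-1 had 6 without DMSO replicate 1 or 3 or RMC-4550 replicate 3. The response counts ran from 916 (without SKNO-1 DMSO replicate 2) to 1899 for SKNO-1 against Molm-14, and from 155 to 870 (without MV4-11 DMSO replicate 2) for SKNO-1 against MV4-11, with 485 without Molm-14 RMC-4550 replicate 2. For Molm-14 against MV4-11 they ran from 1395 (without MV4-11 DMSO replicate 1) to 5873 (without its replicate 2), beside 2620 in all, and were 1432 to 1718 without MV4-11 DMSO replicate 3 or RMC-4550 replicate 2 or 3 or any Molm-14 DMSO library. Counts between DMSO cultures ran from 7594 to 10323 for SKNO-1 against Molm-14, from 3991 (without MV4-11 DMSO replicate 3) to 7614 for SKNO-1 against MV4-11, and from 5339 to 8814 for Molm-14 against MV4-11.

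The replicate block gave 6099, 1734 and 3601 genes (Molm-14, then MV4-11, then SKNO-1), and 25, 6 and 9 adhesion genes; PTK2 in MV4-11 no longer passed (limma adjusted p 0.07). Deviations of same-numbered libraries correlated at -0.05 to 0.00 in Molm-14, -0.40 to 0.59 in MV4-11 and 0.01 to 0.13 in SKNO-1, so the numbers were not taken as pairs. At this depth the 0 to 5 reads of ITGB5 in Molm-14 cannot show a change.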
